A study of Mus musculus with 6 samples.

Results

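The 9 genes described here are ones that hepatocytes around the central vein express under Wnt signalling, or that feed back on that signalling: Glul, Oat, Slc1a2, Rhbg, Tbx3, Lgr5, Axin2, Rnf43 and Znrf3. They were found by gene name in the deposited matrix, where each of the 9 had exactly 1 row among 56534 genes or loci. The samples were whole livers of C57BL/6 mice. The LKO group (n = 3 libraries) carries the label CD36-/- and, by the title of the study, lacks Cd36 in hepatocytes. The CON group (n = 3) is labelled wild type. Mice of both groups ate a diet with 60% of its calories from fat, kept up for 16 weeks. The sources used here do not give the Cre driver, the sex or the age. Nor do the labels state whether each library is a separate animal, so p-values cover only the spread among these 6 libraries, and some of that spread may be technical.

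Wnt ligands and R-spondins from the endothelium of the central vein keep beta-catenin active in the neighbouring hepatocytes. These cells take up ammonia and glutamate and turn them into glutamine, downstream of the urea cycle of the periportal zone. R-spondin, bound to receptors of the Lgr family, removes the ubiquitin ligases Rnf43 and Znrf3 from the cell surface. Without R-spondin these ligases send Frizzled, the Wnt receptor, to degradation. Axin2, Rnf43, Znrf3 and Lgr5 are themselves Wnt targets, so the pathway feeds back on itself. No Wnt signal was manipulated in this study, so the dependence of the 9 genes on Wnt is background and was not measured here.

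Beta-catenin acts through TCF/LEF factors, whose short DNA word is shown here in the promoters of members and of other pericentral genes. The promoter table of RefSeq (build GRCm38.p6) held Glul, Oat, Slc1a2, Axin2 and Rnf43, the last with 2 starts. The 250 bases before each start were searched on both strands for CTTTGAA, then also for CTTTGAT, for CTTTGTA and for CTTTGTT. Of the 6 member promoters, 1 held a match, that of Slc1a2. Among all 32851 promoters listed, 4874 (14.8%) held at least 1. The promoters of Slc1a2, Glul and Rnf43 are printed: the only one with a match, that of the best known pericentral enzyme, and that of the member with the largest difference among those tested. Capitals mark the match, which lies 207 bases before the start of Slc1a2, and the promoters of Glul and Rnf43 have none.
Slc1a2, chr2:102706188-102706437, plus strand: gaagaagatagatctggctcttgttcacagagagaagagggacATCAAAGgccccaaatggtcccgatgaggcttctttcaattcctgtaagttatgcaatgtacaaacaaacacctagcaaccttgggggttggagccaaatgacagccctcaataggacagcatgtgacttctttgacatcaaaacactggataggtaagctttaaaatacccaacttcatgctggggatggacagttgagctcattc
Glul, chr1:153899679-153899928, plus strand: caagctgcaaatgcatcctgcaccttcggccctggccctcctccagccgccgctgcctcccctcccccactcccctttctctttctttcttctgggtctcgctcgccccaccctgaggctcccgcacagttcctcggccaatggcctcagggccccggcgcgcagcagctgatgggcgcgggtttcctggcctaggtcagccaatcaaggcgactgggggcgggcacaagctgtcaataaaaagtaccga
Rnf43, chr11:87662837-87663086, plus strand: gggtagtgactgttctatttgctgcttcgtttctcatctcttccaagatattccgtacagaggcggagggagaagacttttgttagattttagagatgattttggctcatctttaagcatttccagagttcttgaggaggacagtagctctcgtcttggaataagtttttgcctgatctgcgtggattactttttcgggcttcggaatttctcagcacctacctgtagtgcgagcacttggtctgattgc

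Of the other pericentral hepatocyte genes listed for this work, 14 were in the promoter table with 16 promoters. Of these promoters 6 (37.5%) held the word. Among 15 promoters of periportal genes 1 (6.67%) did, that of Hal. The share of all promoters listed was 14.8%, and a difference between the zones was not tested. The stretches around the match, again in capitals, are printed for Cyp2e1, the ethanol-oxidising cytochrome P450, for Cyp1a2 and for Lect2, a secreted hepatocyte protein. The match lies 135, 244 and 32 bases before their starts. A match is a description of the sequence only.
Cyp2e1, chr7:140763659-140763715, plus strand: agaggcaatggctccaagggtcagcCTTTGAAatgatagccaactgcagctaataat
Cyp1a2, chr9:57683868-57683905, minus strand: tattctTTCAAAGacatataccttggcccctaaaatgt
Lect2, chr13:56548539-56548595, minus strand: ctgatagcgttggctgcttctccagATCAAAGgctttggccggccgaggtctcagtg

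Values are FPKM, fragments per kilobase of gene scaled to the mapped fragments of the library, as the authors deposited them. Their sum differed between the libraries, at 959442 to 1271880 in LKO and 831928 to 976871 in CON. The major urinary proteins alone took 23.9% to 29.4% of it in LKO and 6.22% to 22.1% in CON. The median log2 fold change of the 11104 genes tested was -0.23, and 0.01 after median-ratio scaling, which sets the typical gene equal in all libraries. A member's difference is therefore to be read beside its own value after median-ratio scaling, with -0.23 as a rough guide only. The shift was smaller at low levels. It went from -0.26 to 0.04 for Glul, but from -0.86 to -0.73 for Lgr5, fitted with no filter. The libraries also had opposite trends with gene length. Across genes, deviations and length gave a Spearman rho of -0.33 in LKO 1, -0.30 in LKO 2 and 0.21 in LKO 3, and of 0.10 to 0.29 in the CON libraries. Cd36, the deleted gene, was at 2.73, 3.7 and 10.22 FPKM in the LKO libraries, against 61.95, 26.49 and 19.66 FPKM in CON (exact two-sided permutation test, p = 0.1, the smallest that 3 against 3 libraries allow). The hepatocyte marker Alb was abundant in every library, at 16410.33 to 26682.28 FPKM in LKO and 24911.37 to 45750.81 FPKM in CON. Of 7 hepatocyte markers 6 had a negative log2 fold change (median -0.59, and -0.29 after median-ratio scaling). Apoa1 was higher in every LKO library, at 16035.84 to 20480.46 FPKM in LKO and 9739.5 to 12585.75 FPKM in CON (log2 fold change 0.72, adjusted p = 0.196, limma; -0.01 under quantile normalization).

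Of the 9 members, 8 had a mean of at least 1 FPKM over the 6 libraries and were tested, and Lgr5 lay below that level. None of the 8 passed an adjusted p of 0.05 (limma on log2(FPKM + 1), Benjamini-Hochberg over all genes), where 0.00901% of all genes did. Znrf3 reached that level only through CON, its LKO mean being 0.79 FPKM, so a lower value in LKO was built into its entry and it is left out of the next counts. Of the other 7 members, 2 (Slc1a2 and Rnf43) were lower by unadjusted p under 0.05, against 18.9% of all genes in the lower direction. All 7 had a negative log2 fold change, as did 71.6% of all genes. Of the same 7, 3 (Oat, Slc1a2 and Rnf43) were lower in every LKO library than in any CON library, against 24.3% of all genes. After median-ratio scaling 1 of the 7 was, Rnf43, against 11.1% of all genes. Lgr5 and Znrf3 were also lower without overlap on both scales. Neither averaged 1 FPKM in LKO, so for these 2 genes this is a description only. Glul, Rhbg, Tbx3 and Axin2 overlapped between the groups either way. In bulk liver, fewer pericentral hepatocytes and less RNA in each of them cannot be told apart.

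**Figure D1:**
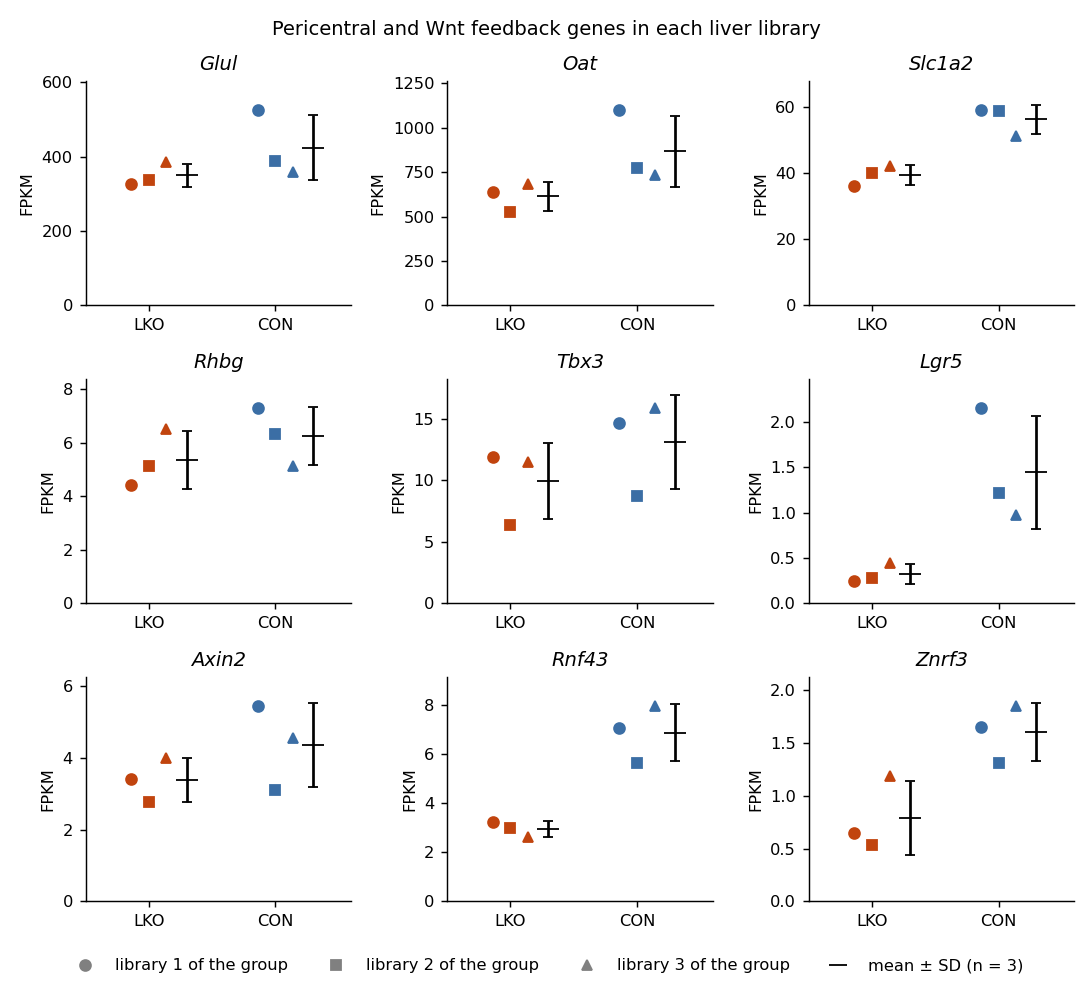
Each panel plots the FPKM of 1 gene (y axis, from 0) in the 3 LKO and the 3 CON libraries, with the mean ± SD of each group (n = 3) beside the points. The groups are apart for Rnf43, with LKO at 2.61 to 3.25 FPKM and CON at 5.64 to 7.96 FPKM, and for Lgr5, Znrf3, Slc1a2 and Oat, and overlap for the other 4 genes.

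Glul encodes glutamine synthetase, the enzyme that fixes ammonia onto glutamate and that in liver is confined to the hepatocytes next to the central vein. LKO libraries 1 to 3 held 327.23, 338.69 and 384.95 FPKM, and CON libraries 1 to 3 held 524.93, 389.22 and 359.34 FPKM. LKO 3 lay above CON 3, and the CON group was spread mainly by the high value of CON 1. The means were 350.3 ± 30.6 FPKM in LKO and 424.5 ± 88.3 FPKM in CON (SD, n = 3 each), and the log2 fold change was -0.26 (SE 0.21, adjusted p = 0.439, limma). That is close to the median of all genes, and after median-ratio scaling it was 0.04 (SE 0.19). The difference was within the spread between libraries.

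Oat encodes ornithine aminotransferase, which links ornithine to glutamate and proline. It had the highest level of the 9 genes, at 640.73, 523.47 and 681.03 FPKM in LKO, against 1098.14, 773.19 and 731.74 FPKM in CON. The groups did not overlap, but LKO 3 and CON 3 were close. The log2 fold change was -0.48 (SE 0.23, adjusted p = 0.249, limma), and -0.18 after median-ratio scaling, where the groups overlapped.

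Slc1a2 encodes a sodium-coupled glutamate transporter best known from astrocytes. It was at 36.18, 40.03 and 42.04 FPKM in LKO and at 58.95, 58.59 and 51.23 FPKM in CON. The highest LKO library was still below the lowest CON library. Its log2 fold change was -0.50 (SE 0.16, adjusted p = 0.186, limma), a mean in LKO of 0.701 times that in CON. After median-ratio scaling the difference was -0.21 (SE 0.16) and the groups overlapped. Slc1a2 has the longest transcript of the 9, at 11595 bases in the file, and with each library's trend with length removed the difference was -0.12.

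Rhbg, a membrane channel for ammonia, was at 4.42, 5.11 and 6.52 FPKM in LKO and at 7.28, 6.32 and 5.13 FPKM in CON. The groups overlapped over much of their range (log2 fold change -0.19, SE 0.21, adjusted p = 0.563, limma), and the sign turned to 0.06 after median-ratio scaling. Exons of Rhbg overlap those of Gm38392 on the same strand in GENCODE M21, and reads of the pair may be split between them. Gm38392 itself was at 8.43, 7.69 and 4.83 FPKM in LKO and at 5.52, 5.56 and 4.06 FPKM in CON.

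Tbx3 encodes a T-box transcription factor, and in mouse liver it is a known target of beta-catenin. It was at 11.88, 6.38 and 11.51 FPKM in LKO and at 14.67, 8.73 and 15.85 FPKM in CON. The libraries numbered 2 were low in both groups, and the groups overlapped (log2 fold change -0.37, SE 0.30, adjusted p = 0.448, limma). The antisense gene Tbx3os1 overlaps its exons and was at 2.49 to 5.65 FPKM in LKO and 3.43 to 4.52 FPKM in CON. Since a strand setting is not given in the sources used here, reads of the 2 genes cannot be told apart.

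Axin2, a scaffold of the complex that degrades beta-catenin, is widely used as a readout of Wnt signalling. It was at 3.41, 2.77 and 3.99 FPKM in LKO, against 5.44, 3.11 and 4.55 FPKM in CON. CON 2 lay below LKO 1 and LKO 3. The log2 fold change was -0.27 (SE 0.23, adjusted p = 0.453, limma), near the median of all genes. It was -0.04 (SE 0.17) after median-ratio scaling and 0.04 (SE 0.15) with the length trend removed.

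Rnf43, a ubiquitin ligase that removes Frizzled from the cell surface, was the member with the largest log2 fold change among those tested. LKO libraries 1 to 3 held 3.25, 3.01 and 2.61 FPKM, and CON libraries 1 to 3 held 7.06, 5.64 and 7.96 FPKM. Each LKO library held less than any CON library, and LKO 3, which was nearest to CON for Cd36, was here the lowest. The means were 2.96 ± 0.323 FPKM in LKO and 6.89 ± 1.17 FPKM in CON (SD, n = 3 each), 2.33-fold lower in LKO. The log2 fold change of -0.99 (SE 0.19) had an adjusted p of 0.163 (limma; 0.0247 to 0.486 over the alternative settings). It was -0.74 (SE 0.17) after median-ratio scaling and -0.67 (SE 0.18) with the length trend removed, and under both the groups stayed apart.

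Znrf3, the paralogue of Rnf43, was at 0.65, 0.53 and 1.19 FPKM in LKO and at 1.65, 1.31 and 1.85 FPKM in CON. The groups did not overlap, though LKO 3 came close to CON 2. The log2 fold change was -0.55 (SE 0.20, adjusted p = 0.199, limma), and -0.40 after median-ratio scaling. With the length trend removed it was -0.19 (SE 0.14). These values lie near the lower limit of testing, and the scale of log2(FPKM + 1) understates them: the mean in LKO was 2.03-fold lower than in CON.

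Lgr5, an R-spondin receptor that in liver marks pericentral hepatocytes, had the lowest level. It was at 0.25, 0.28 and 0.45 FPKM in LKO and at 2.15, 1.22 and 0.97 FPKM in CON. Every LKO library held less than 0.5 of the lowest CON value. The mean was 0.327 ± 0.108 FPKM in LKO and 1.45 ± 0.622 FPKM in CON (SD, n = 3 each), 4.43-fold lower in LKO, the largest ratio among the 9. Fitted with no filter on low genes, the log2 fold change was -0.86 (SE 0.21, adjusted p = 0.348 over 24934 genes, limma), and -0.73 after median-ratio scaling. The depth in reads is unknown, so the counting error of such low values cannot be given.

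**Figure D2:**
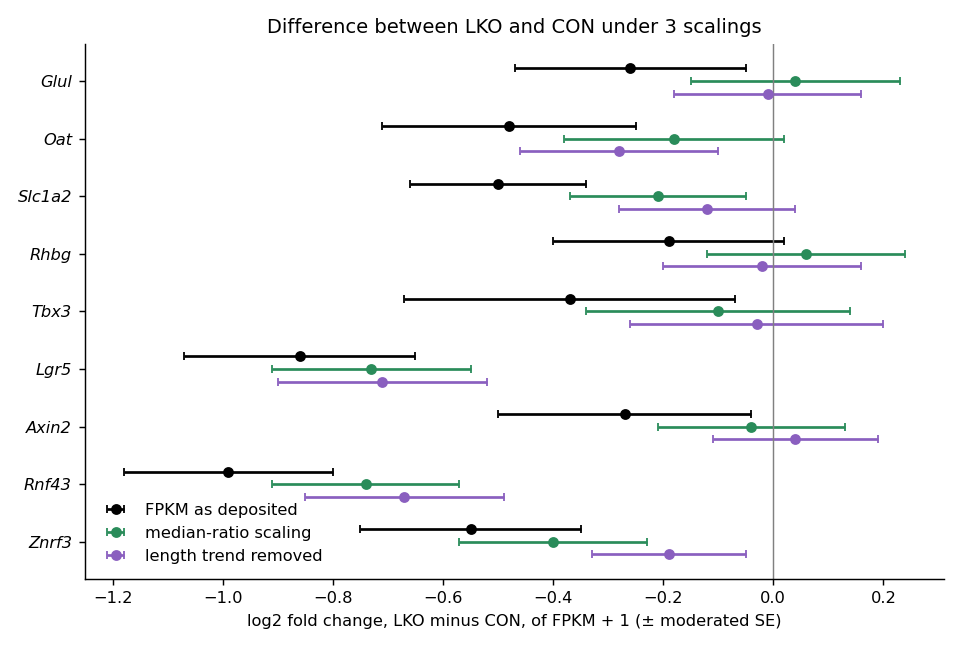
Points give the log2 fold change (x axis, LKO minus CON, of FPKM + 1) of each gene with its moderated SE, for FPKM as deposited, after median-ratio scaling and with each library's length trend removed. Under the last 2 scalings Glul, Rhbg, Tbx3 and Axin2 lie within 0.10 of 0, while Rnf43 and Lgr5 stay between -0.67 and -0.74. Lgr5 comes from fits with no filter.

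LKO 3 was the LKO library with the most Cd36, and its length trend went with CON rather than with LKO 1 and LKO 2. Without it, Slc1a2 and Rnf43 passed in the lower direction (adjusted p = 0.0448 and 0.0247, limma), where 19.0% of all genes did. Znrf3 had an adjusted p of 0.0372 (limma), but it was tested only because of its level in CON. Over all alternative settings the adjusted p ran from 0.0448 to 0.879 for Slc1a2 and from 0.0372 to 0.486 for Znrf3 (limma). Without LKO 3 and after median-ratio scaling 1 member passed, Rnf43 (log2 fold change -0.62, adjusted p = 0.0383), against 8.33% of all genes. Without LKO 3 and with the length trend removed none did, against 5.72% of all genes, and Rnf43 was at -0.51 (adjusted p = 0.0695, limma).

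A ratio of 2 genes within 1 library does not depend on how that library was scaled, so each member was also set against Axin2. This was chosen after the values had been seen. The ratio of Rnf43 to Axin2 was 0.953, 1.09 and 0.654 in LKO 1, LKO 2 and LKO 3, against 1.3, 1.81 and 1.75 in CON 1, CON 2 and CON 3. Both genes have about the same length in the file, 4310 and 4260 bases. Relative to Axin2, Rnf43 was thus lower in every LKO library than in any CON library (log2 difference -0.87). The same held for Lgr5, at 0.0733, 0.101 and 0.113 in LKO against 0.395, 0.392 and 0.213 in CON (log2 difference -1.77). It also held for Znrf3, at 0.191, 0.191 and 0.298 in LKO against 0.303, 0.421 and 0.407 in CON (log2 difference -0.75). Znrf3 is longer than Axin2, at 6311 bases, so this ratio still carries the libraries' trends with length. For Rnf43 the exact two-sided permutation test gave p = 0.1, the smallest possible, and 0.267 when adjusted over the 8 ratios. Lgr5 lay below the limit of testing, and Znrf3 reached it only through its level in CON. Their ratios are therefore descriptions and no support for a difference. With any 1 library left out the log2 difference of Rnf43 stayed between -1.02 and -0.66. The ratios of Glul, Oat, Slc1a2, Rhbg and Tbx3 to Axin2 overlapped between the groups. That of Glul averaged 104.9 ± 15.0 in LKO and 100.2 ± 23.3 in CON (SD, n = 3 each).

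**Figure D3:**
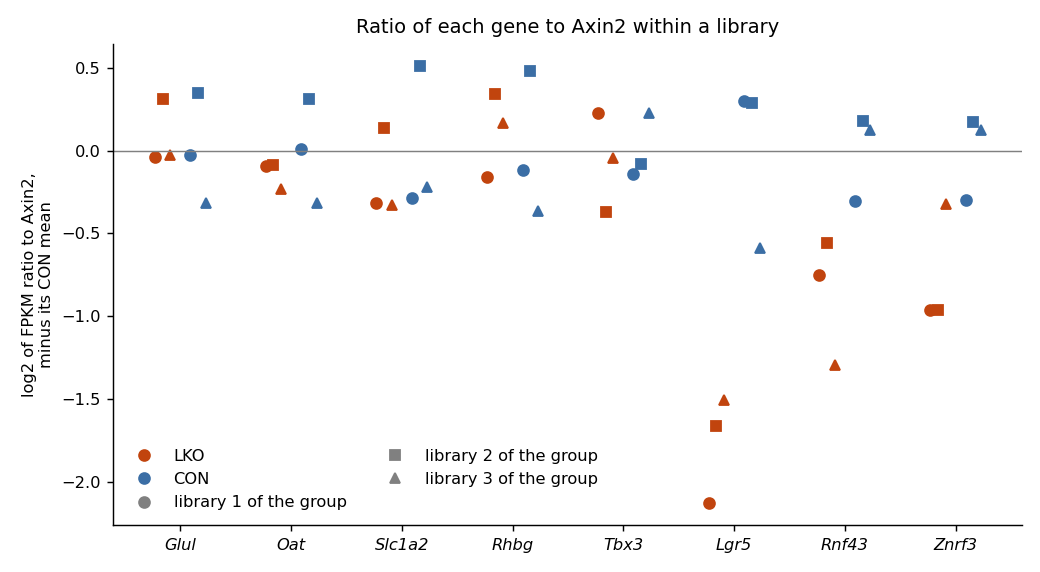
Points give the log2 of the FPKM ratio of each gene to Axin2 in each library, minus its mean in CON (y axis), with LKO left of CON for each gene. The LKO libraries lie below all CON libraries for Lgr5, Rnf43 and Znrf3, and overlap the CON libraries for the other 5 genes.

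Per length, the members spanned a wide range of levels. In LKO the order of the means was Oat (615.1 FPKM), Glul, Slc1a2 (39.4 FPKM), Tbx3 (9.92 FPKM), Rhbg (5.35 FPKM), Axin2 (3.39 FPKM), Rnf43, Znrf3 (0.79 FPKM) and Lgr5. In CON Rnf43 stood above Rhbg (6.24 FPKM) and Axin2 (4.37 FPKM), after Oat (867.7 FPKM), Glul, Slc1a2 (56.3 FPKM) and Tbx3 (13.1 FPKM), with Znrf3 (1.6 FPKM) and Lgr5 last. In LKO the neighbours Tbx3 and Rhbg, and Axin2 and Rnf43, overlapped. In CON Rnf43 and Rhbg, Rhbg and Axin2, and Znrf3 and Lgr5 did. Over the 6 libraries the most similar course among pairs of tested members was that of Glul and Rhbg. Their root mean square distance was 0.106 between log2 deviations from each gene's own mean. The least similar pair was Rhbg and Rnf43, at 0.497.

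By the same distance, the genes outside the set closest to Glul were Ifit3 (0.0264), Slc15a3 (0.0323) and Entpd2 (0.0409). Those closest to Axin2 were Anp32e (0.056), Gata4 (0.0564) and Add3 (0.0564). For Tbx3 and Rnf43 the nearest genes were farther off, at 0.111 (Tap1) and 0.122 (Sbk1). Oat was closest to Calm3 (0.0294). With 6 libraries many genes share such a course, and these distances describe the libraries only.

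Rnf43 and Znrf3 act on Frizzled protein at the cell surface, which was not measured here. The list of Wnt receptor genes holds Frizzled genes, and also co-receptors, R-spondin receptors and receptors of other families. Of 14 listed, 8 were tested, and Fzd1 was tested only through its level in CON, its LKO mean being 0.967 FPKM. Of the other 7, 7 had a negative log2 fold change (71.6% of all genes) and 6 had groups that did not overlap in the lower direction (24.3% of all genes). Their median was -0.77, against -0.23 for all genes. It was -0.49 after median-ratio scaling, where 4 of 7 did not overlap (11.1% of all genes), and -0.39 with the length trend removed. The 8 tested receptors had a median length of 5517 bases. None of the 7 passed an adjusted p of 0.05 over all genes (limma), and 6 were lower by unadjusted p (18.9% of all genes). Without LKO 3, 5 passed lower (19.0% of all genes), 3 after median-ratio scaling as well (8.33%) and 2 with the length trend removed as well (5.72%).

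Fzd4, a Frizzled receptor, was at 1.16, 1.12 and 1.74 FPKM in LKO and at 5.74, 3.34 and 4.62 FPKM in CON (log2 fold change -1.24, SE 0.22, adjusted p = 0.163, limma). Fzd8 was at 1.17, 1.3 and 0.91 FPKM in LKO and at 5.24, 2.83 and 2.48 FPKM in CON. Lgr4, the R-spondin receptor expressed along the whole lobule, was at 2.61, 2.72 and 4.46 FPKM in LKO and at 7.79, 6.4 and 6.22 FPKM in CON (log2 fold change -0.89, adjusted p = 0.175, limma). The co-receptor Lrp6, named after its values were seen, was at 7.95, 7.26 and 9.49 FPKM in LKO and at 12.97, 11.47 and 12.56 FPKM in CON. Ryk, a receptor of another family, overlapped between the groups and was also named after its values were seen (log2 fold change -0.11, and 0.16 after median-ratio scaling).

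Most ligands were below the limit of testing. Of 12 ligand and release genes 4 were tested (median -0.07, and 0.12 after median-ratio scaling). In none of these 4 did the groups separate, against 24.3% of all genes in the lower and 3.92% in the higher direction. So few genes cannot show whether the ligands differed. Wnt2, a ligand of central vein and sinusoidal endothelium, was at 1.17, 1.11 and 1.46 FPKM in LKO and at 1.57, 0.62 and 1.5 FPKM in CON. Rspo3, the R-spondin of the central vein, was at 1.9, 1.87 and 1.43 FPKM in LKO and at 1.8, 1.03 and 2.01 FPKM in CON. Wnt5b, the ligand with the highest level, was at 4.59, 3.92 and 2.74 FPKM in LKO and at 3.93, 5.03 and 4.42 FPKM in CON (log2 fold change -0.22, and 0.03 after median-ratio scaling). Wnt9b stayed below 0.5 FPKM in every library. The summed level of 15 endothelial markers was 88.3 to 129.5 FPKM in LKO and 65.6 to 154 FPKM in CON. None of these markers was listed at 0, and 0 of 13 tested had groups that did not overlap, against 24.3% of all genes in the lower and 3.92% in the higher direction.

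In the cytoplasmic part of the pathway, 16 of 18 listed genes of beta-catenin and its destruction complex were tested. Of these, 15 had a negative value, against 71.6% of all genes (median -0.53, and -0.30 after median-ratio scaling). The groups of 8 did not overlap in the lower direction (24.3% of all genes), and those of 4 after median-ratio scaling (11.1%). Ctnnb1, beta-catenin itself, was at 58.24, 48.61 and 69.84 FPKM in LKO and at 79.12, 69.61 and 73.01 FPKM in CON, with overlap (log2 fold change -0.34, adjusted p = 0.298, limma; -0.04 after median-ratio scaling). The kinase genes Csnk1a1 (-0.81) and Gsk3b (-0.59), the ligase subunit gene Fbxw11 (-0.81) and the tankyrase gene Tnks (-0.71) had the smallest p. Their groups did not overlap as deposited. Those of Csnk1a1 overlapped after median-ratio scaling, and those of Gsk3b with the length trend removed. In the nucleus, Tcf7l2, the main TCF of liver, was at 8.05, 7.61 and 4.97 FPKM in LKO and at 7.8, 6.56 and 5.12 FPKM in CON. The co-repressor gene Tle3 was at 1.7, 1.35 and 2.3 FPKM in LKO and at 7.42, 4.88 and 4.27 FPKM in CON (log2 fold change -1.21, adjusted p = 0.163, limma). Bcl9l, a beta-catenin co-activator gene, had a log2 fold change of -0.91, and the list of 10 tested nuclear factors had a median of -0.06, which turned to 0.11 after median-ratio scaling. The co-repressor gene Tle1, at 19.17, 17.87 and 25.24 FPKM in LKO and at 18.13, 18.99 and 19.74 FPKM in CON, overlapped between the groups (log2 fold change 0.11). Its groups came apart, higher in LKO, after median-ratio scaling (0.40, SE 0.15) and with the length trend removed (0.43). Tle4 overlapped between the groups.

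Of 11 other Wnt targets 7 were tested. Among these, 0 had groups that did not overlap, against 24.3% of all genes in the lower and 3.92% in the higher direction. Their median was -0.08, which turned to 0.14 after median-ratio scaling. Ccnd1, the cyclin D1 gene, named after its values were seen, was at 3.04, 2.38 and 22.74 FPKM in LKO and at 6.9, 4.41 and 5.14 FPKM in CON. LKO 3 stood apart, and the log2 fold change of 0.10 (adjusted p = 0.937, limma) was -0.79 without it (adjusted p = 0.0427, limma; 0.0427 to 0.989 over the alternative settings). Notum, a secreted enzyme that inactivates Wnt ligands, was at 14.29, 16.2 and 15.1 FPKM in LKO and at 20.78, 13.76 and 15.66 FPKM in CON (log2 fold change -0.11, adjusted p = 0.725, limma; 0.17 after median-ratio scaling). Nkd1, a feedback inhibitor, was at 2.56, 2.09 and 1.32 FPKM in LKO and at 4.04, 1.12 and 1.84 FPKM in CON, with CON 1 and CON 2 as the highest and lowest of the 6 libraries.

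**Figure D4:**
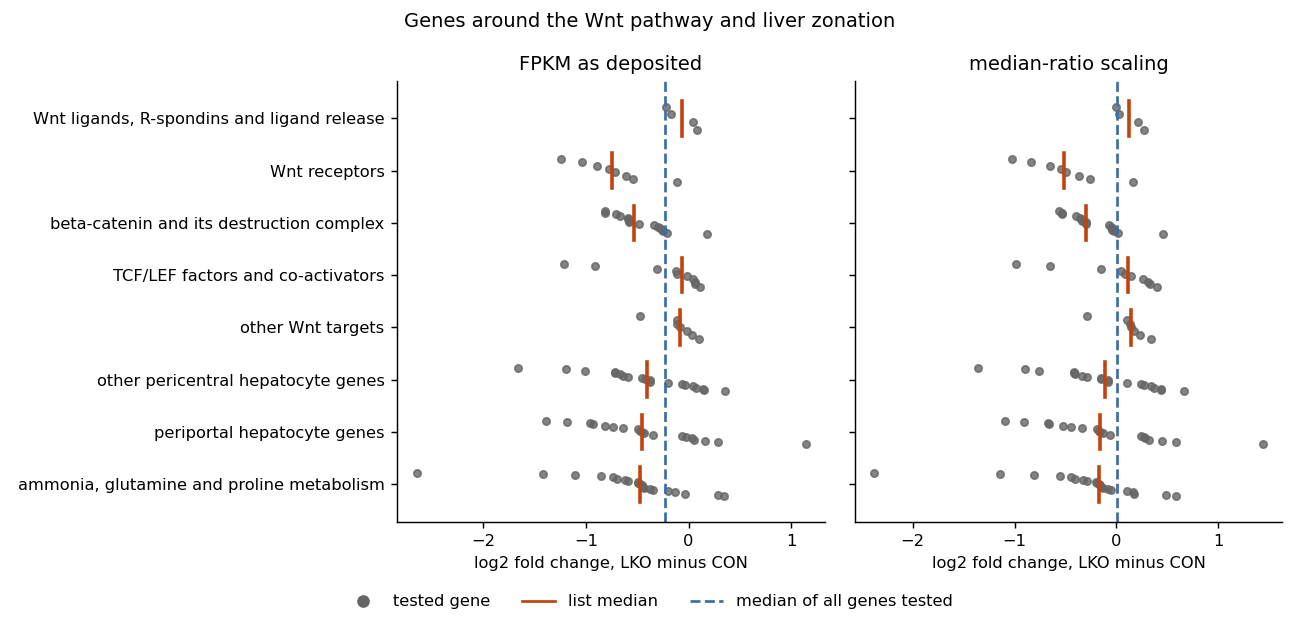
Each point is the log2 fold change (x axis, LKO minus CON, of FPKM + 1) of 1 tested gene, in rows by list, as deposited on the left and after median-ratio scaling on the right. The solid line is the median of the list and the dashed line that of all genes tested. The receptors have the lowest median of these lists in both panels, -0.74 and -0.52 with Fzd1 included.

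The members were also set beside genes of both liver zones. Of 20 other pericentral genes, 15 were negative with a median of -0.40. Of 19 periportal genes, 14 were negative with a median of -0.45. After median-ratio scaling the medians were -0.11 and -0.16. As deposited, 10 pericentral and 7 periportal genes were lower without overlap, against 24.3% of all genes. In the higher direction it was 0 and 1, against 3.92%. After median-ratio scaling 2 and 4 were lower without overlap, against 11.1% of all genes. Over all genes 71.6% were negative, with a median of -0.23 as deposited and 0.01 after median-ratio scaling. Cyp2e1, pericentral, was at 4667.84, 5138.66 and 5909.31 FPKM in LKO and at 8853.75, 8591.51 and 7063.7 FPKM in CON (log2 fold change -0.64, adjusted p = 0.197, limma). Its groups overlapped after median-ratio scaling (-0.34). Cyp1a2, also pericentral, was at 259.45, 302.39 and 474.31 FPKM in LKO and at 252.81, 244.23 and 285.87 FPKM in CON (log2 fold change 0.36, adjusted p = 0.387, limma), and its groups came apart after median-ratio scaling (0.66, higher in LKO). The pericentral nuclear receptor gene Nr1i3 was at 74.48, 88.74 and 67.46 FPKM in LKO and at 136.05, 121.91 and 121.55 FPKM in CON. Here too the groups overlapped after median-ratio scaling (-0.42). The pericentral gene Ahr was at 4.73, 4.47 and 5.36 FPKM in LKO and at 9.94, 7.5 and 7.61 FPKM in CON. Its groups stayed apart after median-ratio scaling (-0.41). Cyp2f2, a periportal cytochrome P450, overlapped between the groups (log2 fold change -0.45, and -0.16 after median-ratio scaling). Pigr, the periportal receptor for polymeric immunoglobulins, was at 106.26, 109.88 and 240.55 FPKM in LKO and at 475.76, 375.97 and 287.39 FPKM in CON (log2 fold change -1.39, adjusted p = 0.175, limma). Its groups stayed apart after median-ratio scaling (-1.09).

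Around Glul and Oat, 21 of 25 listed genes of ammonia, glutamine and proline metabolism were tested. Of these, 19 were negative, against 71.6% of all genes (median -0.47, and -0.17 after median-ratio scaling). Gls2, the periportal glutaminase that releases ammonia, was at 79.81, 82.96 and 80.85 FPKM in LKO and at 137.3, 108.03 and 89.39 FPKM in CON (log2 fold change -0.43, adjusted p = 0.238, limma). Its groups overlapped after median-ratio scaling (-0.13). Of the 21, 8 had groups that did not overlap in the lower direction (24.3% of all genes), and 4 after median-ratio scaling (11.1%). The mitochondrial ornithine carrier gene Slc25a15 (-0.70) and the amino acid transporter gene Slc38a4 (-0.85) were among them. Aldh4a1, which in mitochondria completes proline breakdown to glutamate, was at 7.63, 4.15 and 57.95 FPKM in LKO and at 116.62, 79.21 and 67.98 FPKM in CON, with LKO 3 close to CON. The glutamate dehydrogenase gene Glud1 was at 115.41, 110.81 and 243.49 FPKM in LKO and at 388.25, 339 and 241.09 FPKM in CON, with LKO 3 inside the CON range.

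Markers of other cells gave these values beside the members. The summed level of 10 stellate cell and fibroblast markers was 89.7 to 129.9 FPKM in LKO and 92.4 to 105.2 FPKM in CON. For 9 Kupffer cell and macrophage markers it was 130.6 to 258.5 FPKM in LKO and 162.4 to 236.4 FPKM in CON. For 6 cholangiocyte markers it was 34.1 to 75 FPKM in LKO and 29.4 to 51.5 FPKM in CON. For 7 lymphocyte and neutrophil markers it was 3.76 to 7.53 FPKM in LKO and 6.41 to 12.1 FPKM in CON, and for 5 erythroid markers 145.3 to 334.7 FPKM in LKO and 92.1 to 609.6 FPKM in CON. None of these markers was listed at 0 in any library, and each of the sums overlapped between the groups. The sums rest on a few abundant genes. Among the single markers, named after their values were seen, Alas2 of the erythroid list was at 58.81, 61.28 and 55.81 FPKM in LKO and at 38.81, 40.79 and 49.94 FPKM in CON, higher without overlap as for 3.92% of all genes. The cholangiocyte marker Krt7 (0.31 to 0.41 FPKM in LKO and 0.09 to 0.17 FPKM in CON) and the T cell marker Cd3e (0.36 to 0.56 FPKM in LKO and 0.22 to 0.31 FPKM in CON), both below the limit of testing, were also higher in every LKO library. Every other marker of these lists overlapped between the groups, Cd3d among them. The globin genes of the erythroid list had lower means in LKO, such as Hba-a1 at 97.7 FPKM against 155.3 FPKM in CON. The part of these cells in the members' values was not tested.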

How the data were processed

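RNA of 6 liver libraries (3 LKO, 3 CON) was analysed. The authors deposited FPKM per gene and library, rounded to 2 decimals, with a gene length in bases. HISAT2 and StringTie were used with build mm9, per the submitters' processing notes. The sources used here give no versions, options, annotation release or strand setting, and the read depth is unknown. FPKM fall in every other gene when a few transcripts take much of a library.

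Of 56536 lines below the header, 2 continued an annotation text and held no values. The 11104 genes whose FPKM averaged 1 or more were taken to log2(FPKM + 1) and tested, LKO against CON, with limma 3.58.1 in R 4.3.3 (lmFit, eBayes with trend, group as the only term, two-sided). Benjamini-Hochberg adjustment ran over all genes, with a threshold of 0.05. SE is the moderated standard error. The steps were tested on simulated data. Lgr5, below the filter, was fitted with no filter. Sequences came from a RefSeq table of build GRCm38.p6, and overlapping exons from GENCODE M21.

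Alternatives were median-ratio scaling, quantile normalization, a pseudocount of 0.1, no filter, a filter at 5 FPKM, the library number as a block, removal of each library's trend with length (lowess, span 0.5), removal of mitochondrial genes with rescaling, and leaving out each library. Median-ratio scaling or removal of the length trend together with leaving out LKO 3, and the ratios to Axin2, were added after seeing the data. The text names every member, Cd36, fixed pathway and zone genes (Cyp2e1, Cyp1a2, Cyp2f2, Gls2, Ctnnb1, Wnt2, Wnt9b, Rspo3, Lgr4, Tcf7l2), and of each list described up to 4 genes with the smallest p. The 3 genes nearest to a member in course were also found. Some of these are not described. The members and lists were chosen with earlier results of these data known, and no list was tested as a set. Genes that reached the filter through 1 group alone are left out of the members' and receptors' counts.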

Additional observations from a re-analysis of the deposited data

How the results depend on the processing

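Over all genes 1 was called in LKO against CON. The count was also 1 under median-ratio scaling and quantile normalization, 2 with mitochondrial genes removed and libraries rescaled, and 0 with a pseudocount of 0.1, with no filter, with a filter at 5 FPKM, with the length trend removed and with the replicate block. Leaving out 1 library gave 0 to 2626 genes, with 0 without LKO 1 or LKO 2, 2626 without LKO 3, and 4, 2 and 5 without CON 1, CON 2 and CON 3. Without LKO 3 it was 2172 after median-ratio scaling and 1340 with the length trend removed, both chosen after seeing the data. Of the members 0 were called, and 0 to 3 with 1 library left out. The 3 came without LKO 3 (Znrf3, tested through CON alone, among them), and 1 remained after median-ratio scaling without LKO 3. The cause was not tested.

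Of 139 refitted values of the members, 129 kept their direction and their side of the threshold, 4 passed it (all without LKO 3) and 6 changed sign. After median-ratio scaling Glul was at 0.04, also without LKO 3, and Rhbg at 0.06. Rhbg was at 0.07 under quantile normalization, and Axin2 at 0.04 with the length trend removed, with or without LKO 3. None of these had passed. Rnf43 ranged from -1.22 to -0.51, Lgr5 from -1.81 to -0.66 and Znrf3 from -0.99 to -0.19. Of 645 values of 41 other named genes, 560 kept both, 44 passed without LKO 3 and 41 changed sign, of which Ccnd1 without LKO 3 passed. Ccnd1 was then at -0.79, at -0.50 after median-ratio scaling and at -0.41 with the length trend removed. Wnt5b was at 0.03 after median-ratio scaling, 0.04 under quantile normalization and 0.01 with the length trend removed, and without LKO 3 as well at 0.25 after median-ratio scaling and 0.22 with the length trend removed. Apoa1 was at -0.01 under quantile normalization. With mitochondrial genes removed, Ccnd1 was at -0.12, Wnt2 at -0.12, Rspo3 at -0.10, Tcf7l2 at -0.19 and Tle1 at -0.16. After median-ratio scaling Notum was at 0.17, Nkd1 at 0.13 and Ryk at 0.16, and without LKO 3 as well at 0.24, 0.35 and 0.12. Under quantile normalization they were at 0.10, 0.15 and 0.12. With the length trend removed they were at 0.10, 0.23 and 0.15, without LKO 3 as well at 0.14, 0.49 and 0.11, and Tle4 was at 0.02. Leaving out 1 library, the log2 fold change ran from -0.18 to 0.16 for Wnt2, from -0.09 to 0.19 for Rspo3, from -0.07 to 0.25 for Tcf7l2, from -0.03 to 0.21 for Tle1, from -0.24 to 0.04 for Notum from -0.36 to 0.26 for Nkd1 and from -0.79 to 0.61 for Ccnd1. With a filter at 5 FPKM the ligand list had no gene left.

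The labels do not state whether libraries with the same number are paired. Deviations from the group means correlated at -0.05, 0.17 and 0.07 for numbers 1, 2 and 3. Of the 6 libraries, 4 correlated best with their own number in the other group. With 3 libraries per group these values cannot decide whether the samples are paired. With the number as a replicate block, 0 genes were called and 0 members, with Rnf43 at an adjusted p of 0.19 (limma). Low values such as those of Lgr5 and Znrf3 are limited by a depth that is unknown.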
